A study of Mus musculus with 15 samples.

Results

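Replication-dependent histone genes encode the bulk of the linker histone H1 and of the core histones H2A, H2B, H3 and H4 that package newly made DNA. The members were all genes whose single annotated symbol starts with Hist1h, Hist2h, Hist3h or Hist4h. This rule gave 35 of the 31366 genes that an exon region of a single symbol represents on the array: 6 of class H1, 12 of H2A, 10 of H2B, 2 of H3 and 5 of H4. Each gene value was the median of its exon regions on the deposited log2 scale, and 14 members had 1 exon region. A further 35 histone symbols, Hist1h2bc, Hist3h2ba and Hist4h4 among them, occur on the array without an exon region of their own and therefore have no gene value. The coding sequences of histone genes of a class are nearly alike, so signal assigned to a member may include RNA of its relatives.

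The arrays measured total RNA of splenic B cells from individual C57BL/6 mice, isolated on MACS columns. The groups were 3 arrays of ELL2 -/- cko cells cultured with LPS for 72 h (ELL2 cko LPS), 4 of WT cells cultured with LPS for 72 h (WT LPS), 4 of ELL2 -/- cko cells without LPS and 4 of WT cells without LPS. ELL2 is a transcription elongation factor of RNA polymerase II that is induced when B cells become antibody-secreting cells, and LPS drives mouse B cells to divide and to differentiate in that direction. The cells without LPS were processed at once, so LPS and 72 h of culture cannot be told apart. The cell type in which Cre was active is not given in the sources used here. Per the series' title, the question was how RNA processing changes between B cells and antibody-secreting cells.

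Histone mRNAs of this kind accumulate in S phase. NPAT, recruited under cyclin E and CDK2 activity, drives their transcription, and class-specific factors such as HINFP for H4 and Oct-1 (Pou2f1) for H2B act at their promoters. Most end in a stem-loop bound by SLBP rather than in a poly(A) tail, and are cleaved with the help of the U7 snRNP. They are degraded when DNA synthesis stops. The genes lie in clusters, where H2A and H2B genes often form divergent pairs.

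Promoter sequences from RefSeq (GRCm38.p6) were matched for 29 of the 35 members, and 250 bases before each start were searched on both strands for 4 motifs. The letters CCAAT stand for the CCAAT box and TATAAA for the TATA box. The octamer was searched as ATTTGCAT, and the H1 box, found in H1 promoters, as AAACACA. No motif holds another. The 5 windows below are shown because they belong to members on which the later comparisons turn. They run 5′ to 3′ over the 200 bases before the start, with matches to the 4 motifs on either strand in capitals. The Hist1h1c window is chr13:23738607-23738806, plus strand. That of Hist3h2a is chr11:58954485-58954684, plus strand. That of Hist2h2bb is chr3:96269500-96269699, plus strand, that of Hist1h2bk is chr13:22035621-22035820, plus strand, and that of Hist1h4i is chr13:22041363-22041562, minus strand.
Hist1h1c: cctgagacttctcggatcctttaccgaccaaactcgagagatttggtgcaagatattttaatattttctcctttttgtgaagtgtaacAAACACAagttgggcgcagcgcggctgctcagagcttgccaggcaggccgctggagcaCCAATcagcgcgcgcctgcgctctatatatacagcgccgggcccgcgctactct
Hist3h2a: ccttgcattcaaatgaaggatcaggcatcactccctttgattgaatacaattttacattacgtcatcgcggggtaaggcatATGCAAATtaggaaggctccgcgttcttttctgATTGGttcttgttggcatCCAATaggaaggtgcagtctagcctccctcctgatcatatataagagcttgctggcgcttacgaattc
Hist2h2bb: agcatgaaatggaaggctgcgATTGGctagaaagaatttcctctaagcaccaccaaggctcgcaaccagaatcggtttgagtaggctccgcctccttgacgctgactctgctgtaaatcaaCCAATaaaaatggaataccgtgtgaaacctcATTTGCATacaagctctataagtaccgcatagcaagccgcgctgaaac
Hist1h2bk: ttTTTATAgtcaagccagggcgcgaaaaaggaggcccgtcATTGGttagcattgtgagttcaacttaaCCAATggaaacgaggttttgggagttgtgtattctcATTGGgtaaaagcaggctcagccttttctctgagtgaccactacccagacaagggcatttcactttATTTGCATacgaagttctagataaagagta
Hist1h4i: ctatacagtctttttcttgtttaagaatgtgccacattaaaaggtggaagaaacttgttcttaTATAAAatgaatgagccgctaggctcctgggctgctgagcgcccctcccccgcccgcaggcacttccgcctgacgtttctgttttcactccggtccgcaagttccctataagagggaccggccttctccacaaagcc

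The capitals show a CCAAT box in the H1, H2A and H2B windows and none in that of Hist1h4i, and an octamer in the Hist3h2a, Hist2h2bb and Hist1h2bk windows. Over the 29 matched members, CCAAT occurred in 25 (86.2%), against 34.5% of the promoters of all 27025 genes in the table. By class it was found in 6 of 6 H1, 9 of 9 H2A and 8 of 8 H2B windows and in 1 of 5 H4 windows. The octamer, the binding motif of Oct-1, was present in 9 windows (31%), against 1.61% of all promoters: 5 of 8 H2B and 4 of 9 H2A windows held it, and no H1 or H4 window did. The H1 box was found in 5 of 6 H1 windows, against 6.22% of all promoters. TATAAA was present in 15 windows (51.7%), against 13% of all. The octamer windows are not all separate sequences: the printed 200 bases of Hist1h2bk and Hist1h2ah, a divergent pair, share 177 bases, and those of Hist1h2aa and Hist1h2ba share 120.

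Arrays were first set against their labels. Ell2 itself lay between 14.14 and 14.16 in the 3 ELL2 cko LPS arrays, against 15.73 to 16.86 in WT LPS arrays, a log2 difference of -2.11 ± 0.29 (SE, limma adjusted p = 0.000903), so its signal was lower but present. In the 4 unstimulated ELL2 cko arrays it read 10.38, 9.78, 10.75 and 11.17, and the WT arrays without LPS lay at 10.87 to 11.10. Those groups overlapped, so Ell2 does not bear out the genotype labels of the arrays without LPS. T cell markers set 4 arrays apart. In ELL2 cko replicates 1 and 2 without LPS, 16 of 17 T cell markers lay over 1 log2 unit above the mean of WT without LPS, as did 13 of 13 NK cell and 15 of 15 neutrophil markers in both. The T cell marker mean was 10.92 and 10.52 there, and 5.25 and 5.22 in replicates 3 and 4. In ELL2 cko LPS replicates 2 and 3, 9 and 10 of the 17 T cell markers were raised in this way, with means of 6.89 and 7.11, against 5.16 in ELL2 cko LPS replicate 1 and 5.06 to 5.46 over all 8 WT arrays. Of 18 monocyte and macrophage markers, 7 were raised in ELL2 cko LPS replicates 2 and 3 and 4 in replicate 1, against 1 to 4 in WT LPS. Without LPS, 18, 16, 0 and 7 were raised in ELL2 cko replicates 1 to 4, so that replicate 4 also carried such markers. The mean of 11 B cell markers stayed between 13.52 and 13.76 in the 3 ELL2 cko LPS arrays, against 10.30 to 13.04 in WT LPS. Without LPS this mean was 14.13, 14.07, 15.49 and 15.45 in ELL2 cko replicates 1 to 4, against 15.41 to 15.62 in WT. In replicates 1 to 4, 8, 9, 0 and 0 of the 11 lay over 1 log2 unit below the mean of WT without LPS. The mean of 9 plasma cell markers was 11.39 to 11.90 in ELL2 cko LPS, against 13.30 to 14.43 in WT LPS. The part of other cell types in the results below was not tested. Fits without those 4 arrays keep only replicate 1 of ELL2 cko LPS. They cannot separate cell types from other differences between the replicates.

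In WT cells, histone genes of every class were higher after culture with LPS. Of the 35 members, 24 were called higher in WT LPS than in WT without LPS and none lower, in limma's moderated test with Benjamini-Hochberg adjustment over all genes at an adjusted p under 0.05. Among all genes 13.9% were called higher and 10.6% lower. The median log2 change of the members was 1.68, against 0.03 over all genes. By class, 3 of 6 H1, 8 of 12 H2A, 7 of 10 H2B, both H3 and 4 of 5 H4 members rose. In 23 members every WT LPS array lay above every WT array without LPS, which held for 15.5% of all genes.

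Among the linker histones, Hist1h1c, which encodes the somatic subtype H1.2, rose most. It read 13.23, 13.69, 13.21 and 12.43 in WT LPS arrays, against 9.20, 9.84, 10.01 and 9.80 in WT without LPS. The groups were far apart, with a log2 change of 3.43 ± 0.44 (SE, adjusted p = 4.3e-05), or 10.8-fold. Hist1h1e (H1.4) changed by 2.60 ± 0.81 (adjusted p = 0.0285) and Hist1h1b (H1.5) by 1.59 ± 0.21 (adjusted p = 6.93e-05). Hist1h1a (H1.1) read 7.77 to 9.41 in WT LPS and 6.19 to 7.57 in WT without LPS, without overlap, yet its change of 1.67 had an adjusted p of 0.0955. Hist1h1d (H1.3) changed by 1.05 (adjusted p = 0.0915). Hist1h1t, the H1 of the testis, stayed at 3.33 to 3.63 with LPS and 3.19 to 3.38 without it, near the background controls, whose array medians ran from 3.02 to 3.43.

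The H2B gene Hist2h2bb had the largest rise of all members. It read 13.61, 12.90, 13.38 and 13.48 in WT LPS, against 7.71, 8.72, 8.38 and 9.45 in WT without LPS, a log2 change of 4.78 ± 0.49 (adjusted p = 5.33e-06), or 27.4-fold. All 4 stimulated arrays lay more than 3 log2 units above the highest unstimulated array. Hist1h2bk followed with 3.93 ± 0.52, Hist1h2bp with 2.59 ± 0.35 and Hist1h2bb with 2.45 ± 0.58. Hist2h2be, known in the mouse for a variant H2B of olfactory neurons, did not pass the test: it read 7.36, 9.56, 8.70 and 8.45 in WT LPS and 8.46, 9.32, 8.63 and 8.71 in WT without LPS, with overlapping groups. Hist1h2ba, the H2B of the testis, rose by 1.91 ± 0.34, and its divergent partner Hist1h2aa, the testis H2A, by 1.68 ± 0.23. Their signal may include that of other H2A and H2B genes.

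Hist1h2ak led the H2A class. Its values were 12.002, 11.55, 12.73 and 12.50 in WT LPS, against 8.72, 7.71, 7.49 and 8.79 in WT without LPS, a change of 4.02 ± 0.45 (adjusted p = 1.18e-05). The groups did not overlap. Hist2h2ac changed by 3.35 ± 0.74, Hist1h2aj by 2.52 ± 0.37 and Hist1h2al by 2.38 ± 0.46. The current symbol of Hist1h2al, H2af-ps2, is that of a pseudogene. Hist1h2aj and Hist1h2af had the highest mean signal of the members over the 15 arrays, 15.93 and 15.06. Hist3h2a, in the small cluster on chromosome 11, changed by 1.46 ± 0.53 (adjusted p = 0.0615), with 8.91, 9.13, 9.53 and 8.05 in WT LPS and 6.58, 8.05, 8.58 and 6.57 in WT without LPS, so that the groups overlapped.

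Both H3 members rose in WT. Hist1h3f read 9.04, 10.60, 11.10 and 8.98 in WT LPS, against 4.08, 4.88, 6.75 and 5.21 in WT without LPS, a change of 4.70 ± 0.89 (adjusted p = 0.00121). All stimulated arrays were above all unstimulated ones. Hist1h3d changed by 2.17 ± 0.64 (adjusted p = 0.0223), but WT LPS replicate 1, at 4.41, lay among the unstimulated arrays. In the H4 class Hist1h4i changed by 2.41 ± 0.41, Hist1h4k by 1.51 ± 0.29, Hist1h4m by 1.48 ± 0.34 and Hist1h4a by 1.47 ± 0.26, while Hist1h4b changed by 0.46 (adjusted p = 0.181). Of the 24 calls, 20 held whichever single array was left out. The exceptions were Hist1h1e, Hist1h2bm, Hist1h3d and Hist2h2aa1.

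**Figure D1:**
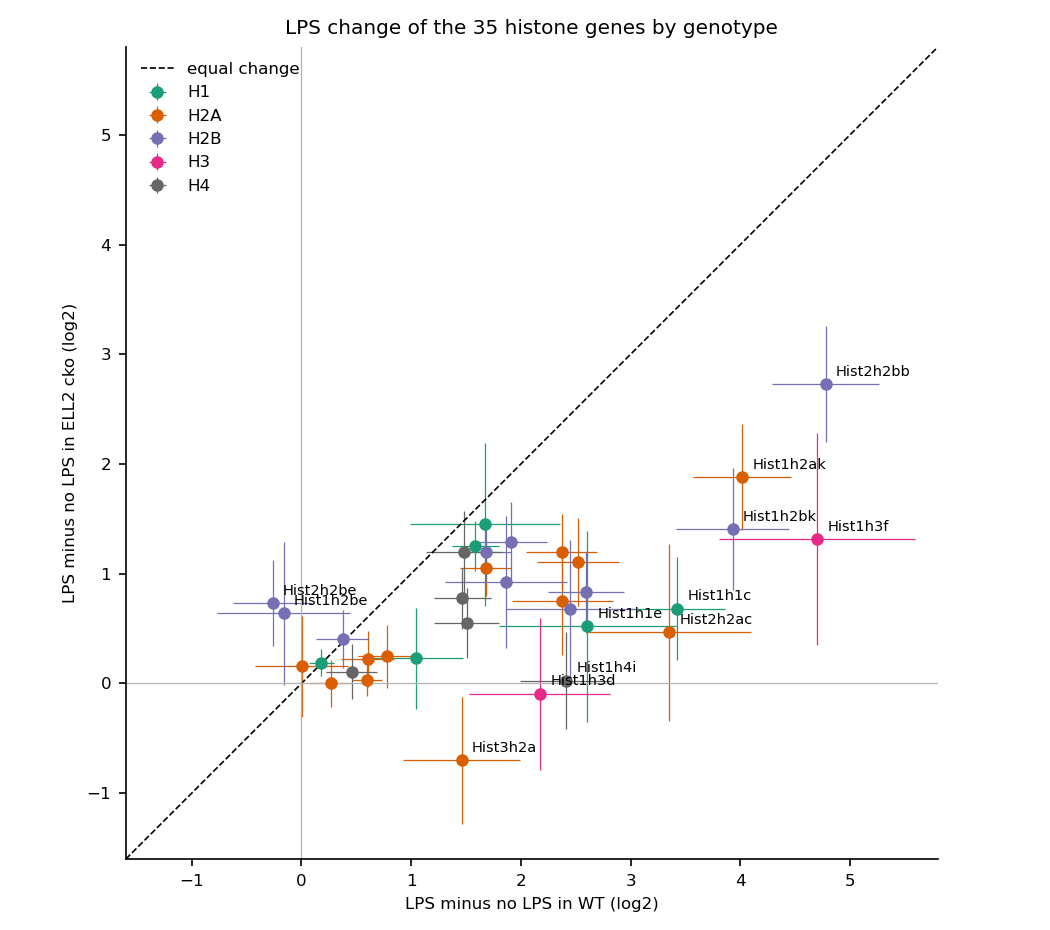
Log2 change with LPS in ELL2 cko (vertical axis) against that in WT (horizontal axis) for the 35 histone genes, coloured by class, with standard errors from the limma fit and a dashed line of equal change. Most points lie below the line; Hist2h2bb sits at 2.73 in ELL2 cko and 4.78 in WT, and Hist1h4i at 0.03 and 2.41.

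In ELL2 cko cells the same comparison called fewer members. Of the 35, 7 were called higher and none lower, beside 6.36% of all genes called higher and 3.99% lower. The median log2 change was 0.68, against 0.04 over all genes. The called members were Hist2h2bb (2.73 ± 0.53), Hist1h2ak (1.88 ± 0.48), Hist1h2ba (1.29 ± 0.36), Hist1h1b (1.25 ± 0.23), Hist1h2af (1.20 ± 0.35), Hist3h2bb-ps (1.20 ± 0.25), a pseudogene by its symbol, and Hist1h2aa (1.05 ± 0.25). No H3 or H4 member was called. In 10 members every ELL2 cko LPS array lay above every ELL2 cko array without LPS, which held for 12.2% of all genes.

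The count in ELL2 cko rests on single arrays: it was 4 without ELL2 cko LPS replicate 1, 3 without replicate 3, and 4 without ELL2 cko replicate 1 or 2 of the cells without LPS. Without the 4 arrays with T cell markers it was 9, of which 2 were among the 7. That fit holds 1 stimulated ELL2 cko array, assumed to vary like the other groups.

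The 3 ELL2 cko LPS arrays did not have one common histone level. The first array had a median of 7.88 over the 35 members, and the other 2, replicates 2 and 3, had 6.17 and 6.44. The same median was 7.36 to 8.49 in WT LPS, 5.78 to 6.13 in ELL2 cko without LPS and 5.64 to 6.13 in WT without LPS. In this pooled median replicate 1 thus lay among the WT LPS arrays, and replicates 2 and 3 lay just above the range of the unstimulated arrays. By class, the H2A median of replicate 1 (7.61) lay below the WT LPS range of 7.77 to 8.58. Its H1 median (8.97) lay above the range of 7.61 to 8.47, and its H2B, H3 and H4 medians lay within theirs. In 13 of the 35 members replicate 1 exceeded both other replicates by over 1 log2 unit, and in none was it below both by that much. Over all genes these shares were 1.89% and 1.76%. Of the 25 S phase genes described below, 3 (12%) were above both by that much and 0 below both. With the brightest exon region as the gene value, the medians were 10.06, 8.87 and 9.59 in the ELL2 cko LPS arrays, against 9.83 to 10.41 in WT LPS, and 7.63 to 8.63 over the arrays without LPS, so replicate 3 then lay nearer to WT LPS. The 13 were 3 of 6 H1, 1 of 12 H2A, 6 of 10 H2B, both H3 and 1 of 5 H4 members.

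**Figure D2:**
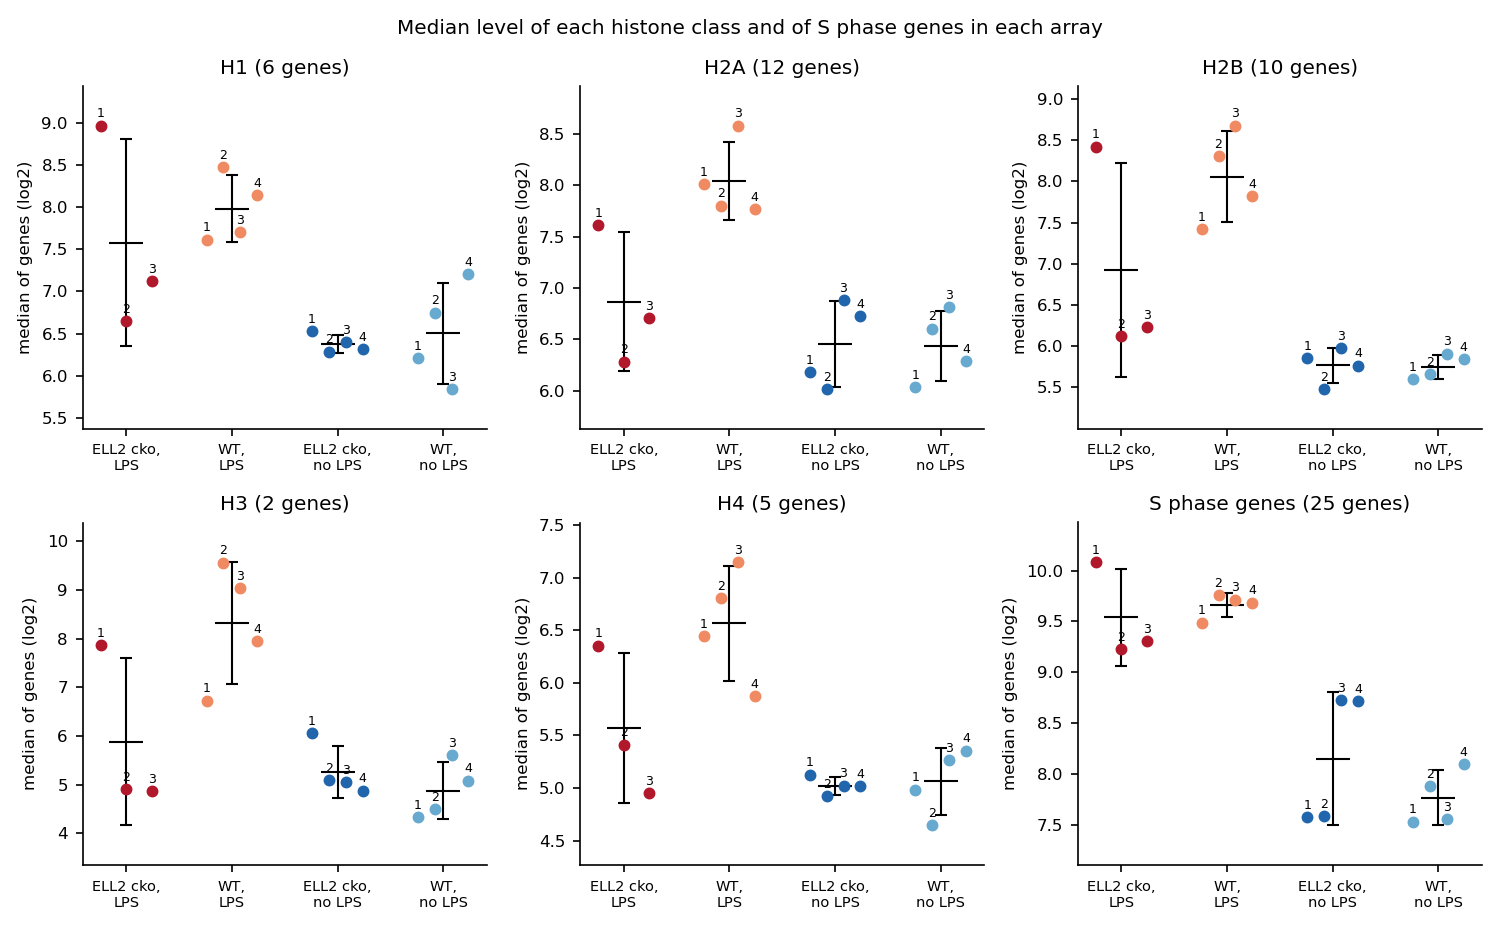
Median log2 value over the genes of each histone class and of the S phase list in each array, by group, with array numbers; horizontal marks and bars give the mean and SD over arrays. In the H2B panel ELL2 cko LPS replicate 1 (8.42) lies within the WT LPS range (7.42 to 8.68), and replicates 2 and 3 (6.12 and 6.23) lie near the arrays without LPS (5.48 to 5.98).

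By class, the H2B median was 6.93 ± 1.30 (SD, n = 3) in ELL2 cko LPS and 8.06 ± 0.55 (n = 4) in WT LPS, and 5.77 ± 0.21 in ELL2 cko and 5.75 ± 0.15 in WT without LPS (n = 4 each). The H2A median was 6.87 ± 0.68 and 8.04 ± 0.38 in the same stimulated groups, and the H1 median 7.58 ± 1.23 and 7.98 ± 0.40. For H3 it was 5.88 ± 1.72 in ELL2 cko LPS and 8.32 ± 1.26 in WT LPS, over 2 genes, and for H4 5.57 ± 0.72 and 6.57 ± 0.55. In every class the spread of the ELL2 cko LPS arrays exceeded that of the WT LPS arrays.

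With LPS, 4 histone genes were called lower in ELL2 cko than in WT and none higher, beside 3.3% of all genes called lower and 1.36% higher. The median log2 difference over the 35 members was -0.63, against 0.02 over all genes, and 31 of the 35 differences were below 0. In 7 members every ELL2 cko LPS array lay below every WT LPS array, which held for 7.65% of all genes.

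Hist1h1c read 12.01, 9.81 and 10.05 in ELL2 cko LPS, against 13.23, 13.69, 13.21 and 12.43 in WT LPS. The groups did not overlap, and replicates 2 and 3 were at the level of cells without LPS. The log2 difference was -2.52 ± 0.47 (limma adjusted p = 0.00699). Hist3h2a read 7.88, 5.51 and 5.86 in ELL2 cko LPS, against 8.91, 9.13, 9.53 and 8.05 in WT LPS, a difference of -2.49 ± 0.58 (adjusted p = 0.0235). Its replicates 2 and 3 lay below all 8 arrays without LPS.

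Hist1h4i read 13.37, 10.86 and 11.33 in ELL2 cko LPS, against 13.15, 13.93, 14.09 and 13.84 in WT LPS, a difference of -1.90 ± 0.45 (adjusted p = 0.0249). Replicate 1 lay within the WT range, so these groups overlapped. Hist1h2bp read 7.27, 5.35 and 6.02 in ELL2 cko LPS, against 7.48, 7.70, 8.66 and 7.62 in WT LPS, a difference of -1.65 ± 0.37 (adjusted p = 0.0207). Its 3 ELL2 cko LPS values all lay below the WT LPS values.

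**Figure D3:**
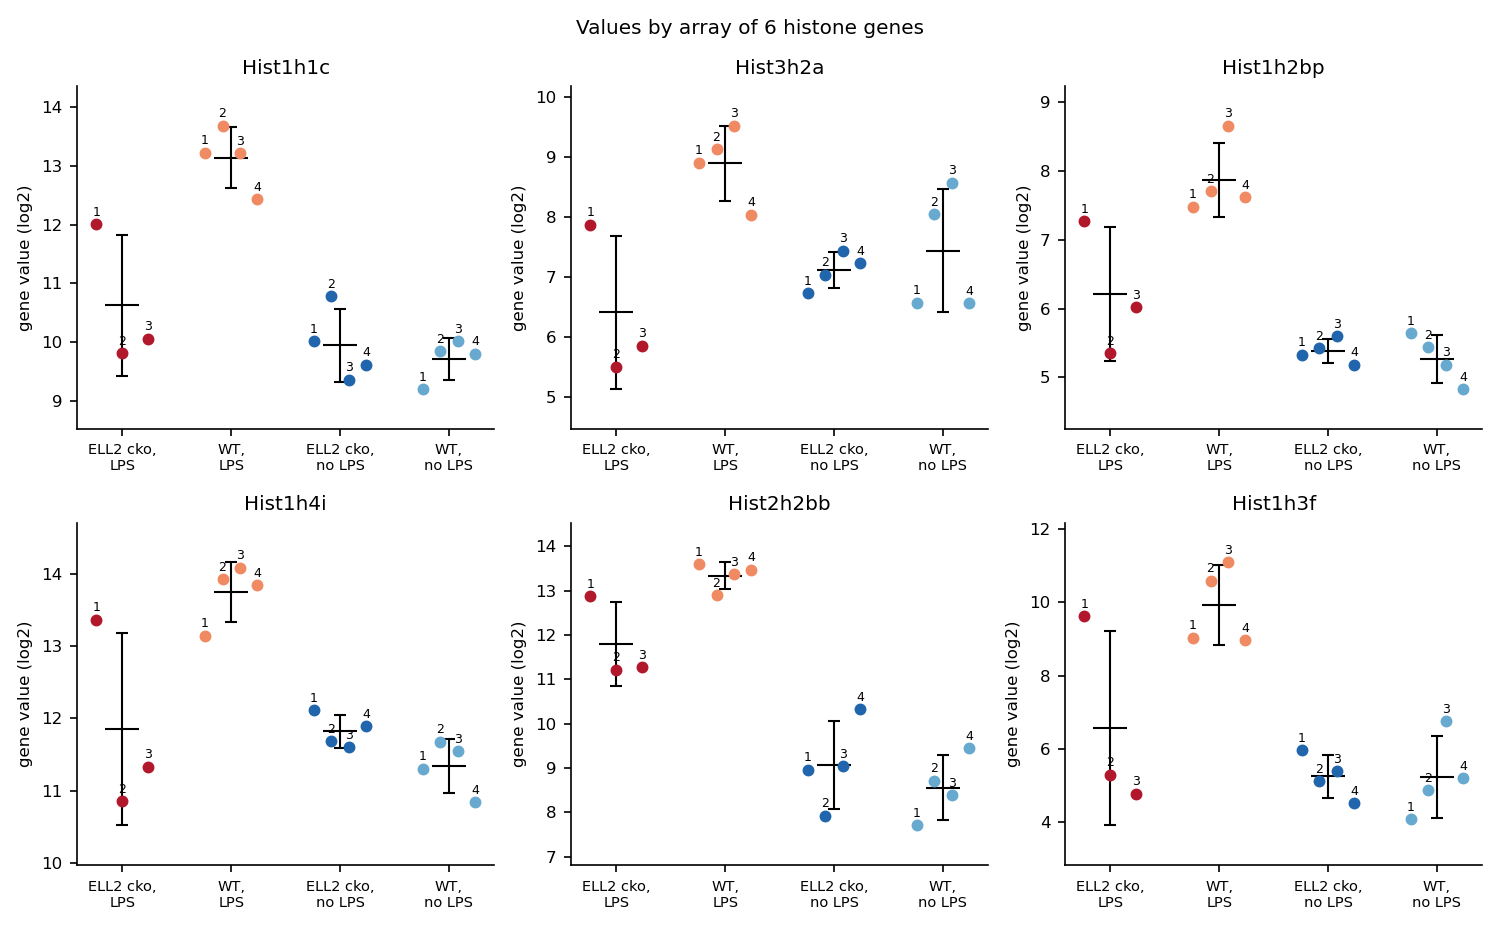
Log2 gene values by array of the 4 histone genes called lower in ELL2 cko than in WT with LPS, and of Hist2h2bb and Hist1h3f, by group, with array numbers and the mean and SD. In Hist1h1c, ELL2 cko LPS replicate 1 is at 12.01 and replicates 2 and 3 at 9.81 and 10.05, against 12.43 to 13.69 in WT LPS.

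The other 4 members with log2 differences beyond -2 did not pass. Hist1h3f read 9.62, 5.30 and 4.78 in ELL2 cko LPS, against 9.04, 10.60, 11.10 and 8.98 in WT LPS, a difference of -3.36 ± 0.97 (adjusted p = 0.0659), with replicate 1 inside the WT range. Hist1h2bk differed by -2.02 ± 0.56 (adjusted p = 0.0548), Hist2h2ac by -2.44 ± 0.80 (adjusted p = 0.112) and Hist1h1e by -2.21 ± 0.87 (adjusted p = 0.195). By contrast, Hist1h2af differed by -0.33 ± 0.35, Hist1h2aa by -0.34 ± 0.25 and Hist1h1b by -0.13 ± 0.23, none past the threshold.

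None of the 4 calls for lower values in ELL2 cko held in every fit that left out an array. The count was 0 without ELL2 cko LPS replicate 2 or 3, 0 without the 4 arrays with T cell markers, 0 with the spread taken from the 2 stimulated groups alone, 1 without WT LPS replicate 3, and 12 without ELL2 cko LPS replicate 1, where the 4 were joined by Hist1h1a, Hist1h1e, Hist1h2bb, Hist1h2bk, Hist1h2bm, Hist1h3f, Hist1h4k and Hist2h2bb. Replicates 2 and 3 also carry the T cell markers.

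Without LPS, 0 of 35 members were called between ELL2 cko and WT, beside 0.0128% of all genes in limma's test, and 4 (11.4%) had an unadjusted p under 0.05, against 9.02% of all genes. In 1 member, Hist2h2ab, every ELL2 cko array lay above every WT array, which held for 2.86% of all genes. The median log2 difference was 0.11. The 4 members with an unadjusted p under 0.05 were H2A genes, all higher in ELL2 cko: Hist1h2ak by 1.39 ± 0.45 (adjusted p = 0.436), Hist1h2aj by 0.87 ± 0.37, Hist1h2af by 0.85 ± 0.32 and Hist2h2ab by 0.31 ± 0.14. Hist1h2ak read 8.83, 8.57, 10.50 and 10.37 in ELL2 cko without LPS, against 8.72, 7.71, 7.49 and 8.79 in WT without LPS. Replicates 3 and 4 were the high ones, while replicates 1 and 2, the arrays with T cell markers, lay near the WT values. Replicate 4 carried monocyte and macrophage markers, and the count was 0 without it too.

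The same replicates 3 and 4 were higher in S phase genes: 20 and 21 of 25 lay above all WT arrays without LPS, against 5 and 6 in replicates 1 and 2, and against 20.7% and 20.6% of all genes in replicates 3 and 4. Of the 12 H2A members, 7 lay above all WT arrays without LPS in each of replicates 3 and 4. The part of this in the H2A values was not tested.

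The LPS change itself was compared between genotypes as an interaction. The limma test called 0 of 35 members, beside 1.18% of all genes called lower, and 15 members (42.9%) had an unadjusted p under 0.05, against 12.8% of all genes. The median difference of LPS changes was -0.82, and 30 of the 35 were negative, against a median of 0.00 over all genes. Hist1h1c came nearest, with a difference of -2.74 ± 0.64 (adjusted p = 0.0538), followed by Hist1h4i with -2.38 ± 0.61 (adjusted p = 0.0746) and Hist1h2bp with -1.76 ± 0.51 (adjusted p = 0.116). Without ELL2 cko LPS replicate 1 the count was 6, and it was 1 without WT LPS replicate 1 or 4.

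S phase genes, among them replication factors and cell cycle genes, were read in the same arrays. Of 25 measured, 19 rose with LPS in ELL2 cko and 21 in WT, with medians of 1.29 and 1.70 on the log2 scale. Over all genes 6.36% were called higher in ELL2 cko and 13.9% in WT. Between the genotypes with LPS, limma's test called 0, beside 3.3% of all genes called lower and 1.36% higher. In that test 5 of the 25 had an unadjusted p under 0.05, against 17.0% of all genes. Over these genes the ELL2 cko LPS arrays had medians of 10.08, 9.23 and 9.31, against 9.49 to 9.76 in WT LPS, and 7.58 to 8.73 in ELL2 cko without LPS and 7.53 to 8.10 in WT without LPS. All 3 ELL2 cko LPS arrays were above the unstimulated arrays in this median. Mki67, the proliferation antigen Ki-67, read 16.32, 15.07 and 15.35 in ELL2 cko LPS, against 16.02 to 17.30 in WT LPS.

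Set against the WT LPS mean, the histone members had median differences of -0.26, -1.06 and -0.69 in the 3 ELL2 cko LPS arrays in replicate order, and the S phase genes -0.20, -0.40 and -0.29. In replicate 2, 22 of 35 histone genes lay below all 4 WT LPS arrays, in replicate 3, 19, and in replicate 1, 12. Over all genes those shares were 23.7%, 24.4% and 22.3%. In the same order, 1, 0 and 3 histone genes lay above all 4, beside 28%, 24.4% and 21.7% of all genes. Of the 25 S phase genes, 11, 8 and 3 lay below all 4 and 3, 2 and 8 above. Of 22 histone chaperone genes, 9, 8 and 3 lay below and 6, 7 and 5 above. Of 8 replication-independent histone genes, 4, 3 and 1 lay below and 1, 3 and 2 above.

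**Figure D4:**
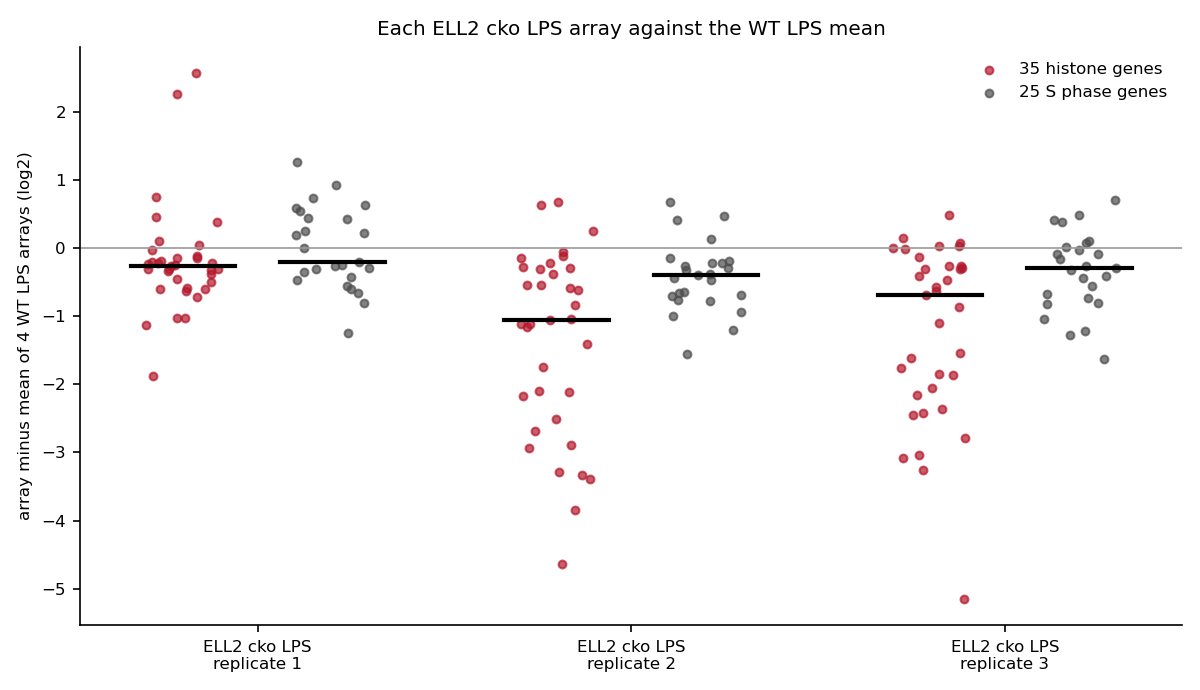
Difference of each ELL2 cko LPS array from the mean of the 4 WT LPS arrays (log2) for the 35 histone genes (red) and the 25 S phase genes (grey), with black bars at the medians. The histone medians are -0.26, -1.06 and -0.69, and in replicates 2 and 3 the histone points reach further down than the S phase points.

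Exon regions within a gene did not move alike. Of the 84 exon regions of members, 47 were called higher with LPS in WT in a fit over all 437027 exon regions, where 9.86% were called higher. In ELL2 cko 11 were called higher (background 2.95%). Between ELL2 cko and WT with LPS, 5 were called lower, where 2.99% of all exon regions were called in either direction. Hist1h2bk shows the range. Its exon region 2, the brightest, read 13.12, 12.01 and 12.62 in ELL2 cko LPS, 13.29 to 14.08 in WT LPS and 9.20 to 10.31 in WT without LPS. Its exon region 3 read 11.41, 7.19 and 7.44 in ELL2 cko LPS, 11.07 to 12.77 in WT LPS and 4.26 to 5.38 in WT without LPS. So ELL2 cko LPS replicates 2 and 3 lay nearer to replicate 1 in the brightest exon region than in exon region 3. In ELL2 cko without LPS the brightest exon region read 8.15, 9.56, 12.37 and 12.21. ELL2 cko LPS replicate 2 thus lay below replicates 3 and 4 of the ELL2 cko cells without LPS.

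The median over exon regions can also hide a change. Hist1h2ah has 3 exon regions, and those near background set its median: it changed by 0.60 in WT (adjusted p = 0.0844). Its brightest exon region read 14.33 to 15.34 in WT LPS, against 11.57 to 12.38 in WT without LPS. With the brightest exon region of each gene as its value, an alternative chosen after seeing the data, 28 of the 35 members were called higher with LPS in WT (15.7% of all genes) and 11 in ELL2 cko (5.91%). Hist1h1a, Hist1h1d, Hist1h2ah, Hist1h2bh and Hist2h2aa2 were added in WT and Hist2h2aa1 was lost. With LPS, 2 of the 4 members called lower in ELL2 cko were called, beside 2.71% of all genes. Those were Hist1h1c and Hist1h4i, which have 1 exon region each, so that their values could not change. Hist1h2bp and Hist3h2a, with 4 exon regions each, were not called: they differed by -0.32 (limma adjusted p = 0.773) and -1.02 (adjusted p = 0.104).

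**Figure D5:**
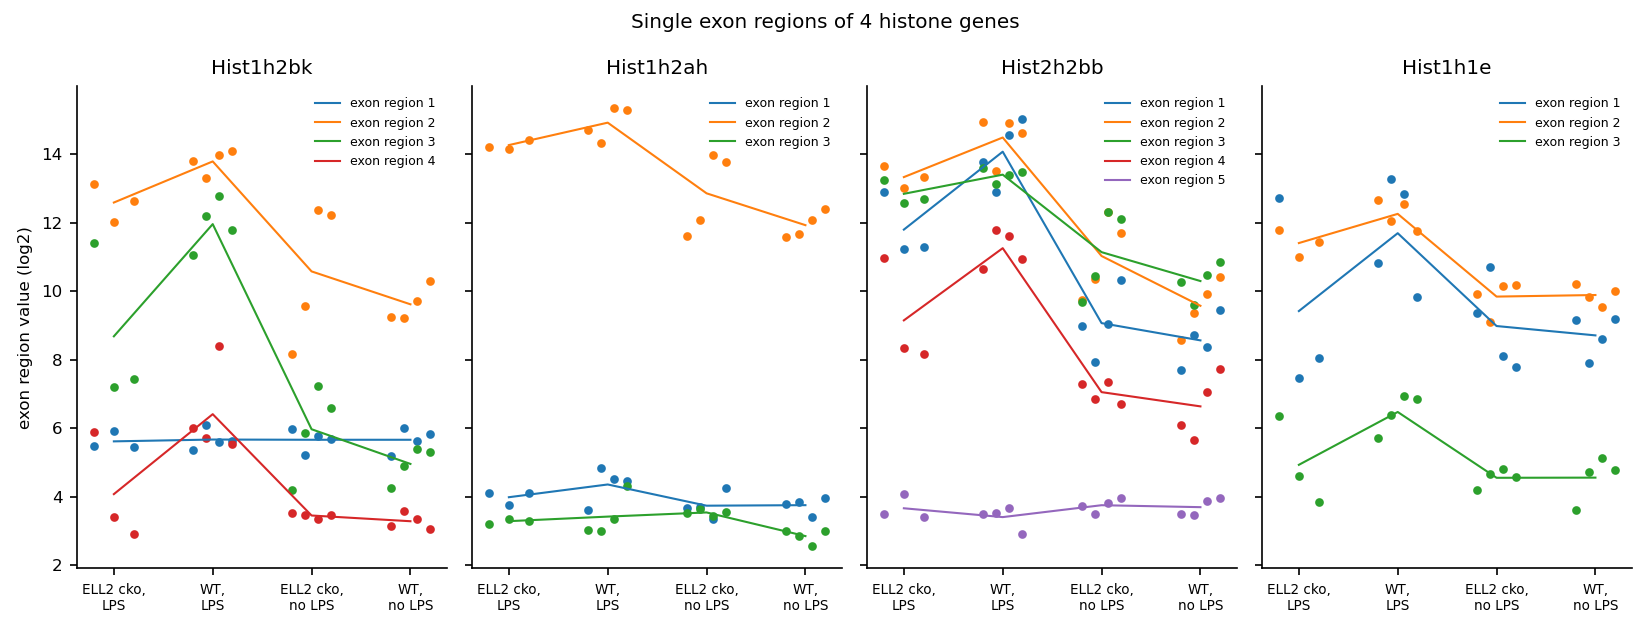
Log2 values of the single exon regions of Hist1h2bk, Hist1h2ah, Hist2h2bb and Hist1h1e by group; points are arrays in replicate order and lines join group means. In Hist1h2bk exon region 2 stays between 12.01 and 13.12 in ELL2 cko LPS while exon region 3 splits into 11.41 and 7.19 to 7.44.

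Exon regions that carry the symbols of several histone genes of a class cover more of the family. There were 122 of them: 32 for H2A, 22 for H2B, 36 for H3 and 32 for H4. With LPS in WT, 90 were called higher and 1 lower, with 26 H2A, 15 H2B, 27 H3 and 22 H4 regions higher. In ELL2 cko 14 were called higher. Over all exon regions 2.95% were called higher in ELL2 cko and 9.86% in WT. Between ELL2 cko and WT with LPS, 11 were called lower and none higher, 7 of them H2A, where 2.99% of all exon regions were called in either direction. The H3 regions had a median of 8.76, 6.88 and 6.42 in ELL2 cko LPS, against 8.27 to 9.55 in WT LPS. Without LPS the H3 medians were 5.31 to 5.82 in WT and 5.32 to 6.39 in ELL2 cko. The H2A regions had medians of 11.94, 10.03 and 10.57 in ELL2 cko LPS, against 11.75 to 12.61 in WT LPS. Without LPS the H2A medians were 8.93 to 9.92 in WT and 9.39 to 10.31 in ELL2 cko. ELL2 cko LPS replicate 2 lay within the latter range. The H2B regions had medians of 9.56, 7.57 and 7.28 in ELL2 cko LPS, against 8.15 to 10.94 in WT LPS. Without LPS the H2B medians were 7.86 to 8.13 in WT and 7.66 to 8.45 in ELL2 cko. So in H2B, ELL2 cko LPS replicates 2 and 3 lay below all arrays without LPS, and WT LPS replicate 4 (8.15) lay among those arrays. For H4 the medians were 9.40, 7.76 and 7.77 in ELL2 cko LPS, against 9.38 to 10.31 in WT LPS. Without LPS the H4 medians were 7.77 to 7.90 in WT and 7.72 to 8.27 in ELL2 cko. ELL2 cko LPS replicates 2 and 3 lay within the latter range. In all 4 classes replicate 1 was the highest of the 3 and lay within the WT LPS range, in regions that the gene values did not use, while the order of replicates 2 and 3 differed between classes.

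Genes of the histone mRNA pathway were read from the same fit, where 13.9% of all genes were called higher and 10.6% lower with LPS in WT. Among 7 transcription genes, 4 rose and 1 fell with LPS in WT. The cyclin E genes Ccne2 and Ccne1 rose by 2.28 ± 0.22 and 1.81 ± 0.28, Hinfp by 1.37 ± 0.23 and Casp8ap2, which encodes the NPAT partner FLASH, by 0.52 ± 0.16. Pou2f1 fell by 0.53. Npat changed by 0.63 (adjusted p = 0.0693). With LPS, 2 of the 7 were lower in ELL2 cko than in WT, beside 3.3% of all genes. Hinfp read 9.38, 9.46 and 9.20 in ELL2 cko LPS, against 9.999 to 10.83 in WT LPS, a difference of -1.24 ± 0.25 (adjusted p = 0.0104). All 3 values were below the WT LPS range, replicate 1 included. Pou2f1 differed by -0.88 ± 0.20 (adjusted p = 0.0195). With the brightest exon region as the gene value, the Hinfp difference was 0.21, so its sign depends on which exon regions are read.

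Of 11 genes of 3′-end formation, 2 rose and 1 fell with LPS in WT. These counts are near the shares over all genes, 13.9% called higher and 10.6% lower. Zfp473, whose product ZFP100 belongs to the U7 snRNP pathway, rose by 0.89 ± 0.19, Ncbp2 of the cap-binding complex by 1.00 ± 0.30, and the endonuclease gene Cpsf3 fell by 1.04. Slbp, the stem-loop binding protein, lay at 7.58 or below in all 3 ELL2 cko LPS arrays, at 7.70 to 8.02 in WT LPS and 7.32 to 7.82 in WT without LPS. Its LPS change in WT was 0.32 (adjusted p = 0.209), and its difference between genotypes with LPS was -0.54 (adjusted p = 0.128). Ncbp1, the larger cap-binding subunit, was higher in ELL2 cko LPS than in WT LPS by 0.94 ± 0.17 (adjusted p = 0.00617). Of 5 genes of histone mRNA decay, Upf1 and Zcchc6 fell with LPS in WT, by 0.60 and 0.87, and none rose.

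Histone chaperones, which carry new histones to chromatin, rose in part: 5 of 22 in ELL2 cko and 10 of 22 in WT, with none lower. Over all genes 6.36% were called higher in ELL2 cko and 13.9% in WT. Asf1b, the H3-H4 chaperone of dividing cells, rose by 2.83 ± 0.43 in WT, Spty2d1 by 2.39 ± 0.40 and Chaf1a of the CAF-1 complex by 2.15 ± 0.30. Asf1b read 11.18, 10.30 and 10.21 in ELL2 cko LPS, against 10.54 to 11.41 in WT LPS and 7.83 to 8.84 in WT without LPS, so all its stimulated arrays were above the unstimulated ones in WT. Nap1l1, an H2A-H2B chaperone, was higher in ELL2 cko LPS than in WT LPS by 1.41 ± 0.34 (adjusted p = 0.028).

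Of the replication-independent histone genes, 8 had a gene value, and H3f3b and H1f0 had none. With LPS in WT, H2afx (3.12 ± 0.38), the variant phosphorylated at DNA breaks, Cenpa (2.23 ± 0.33), the centromeric H3, H2afz (1.88 ± 0.26) and H2afv (0.71 ± 0.16) rose, and H2afy, which encodes macroH2A1, fell by 1.40. Over all genes 13.9% were called higher and 10.6% lower with LPS in WT. None of the 8 was called between genotypes with LPS, beside 3.3% of all genes called lower and 1.36% higher. H2afx read 11.69, 11.04 and 11.03 in ELL2 cko LPS, against 10.78 to 12.47 in WT LPS and at most 9.18 in WT without LPS. Its 3 ELL2 cko LPS arrays all lay within the WT LPS range.

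The calls were also counted by promoter motif. Over all genes 13.9% were called higher with LPS in WT, and 3.3% lower in ELL2 cko than in WT with LPS. With LPS in WT, 7 of 9 members with the octamer and 13 of 20 without it were called, with median changes of 1.91 and 1.49. With LPS, the median difference between ELL2 cko and WT was -1.55 in the members with an octamer and -0.55 in the 20 without, and 1 and 3 of them were called. Among members with and without TATAAA, 13 of 15 and 7 of 14 were called with LPS in WT. These are descriptions over members that share sequence, with no test.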

How the data were processed

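The authors deposited log2 SST RMA values made with Affymetrix Expression Console, per the labels and the submitters' processing notes; versions, filters and the genome build are not given in the sources used here. The table holds 437027 exon regions and 282044 junctions for 15 arrays, and 31366 genes had an exon region annotated with a single symbol. The gene value was the median of these exon regions. A group-means model over all 15 arrays was fitted to all genes with limma 3.58.1 in R 4.3.3, after a test on simulated data. Tests were two-sided with Benjamini-Hochberg adjustment, and a gene was called at an adjusted p under 0.05. Errors are SE of the fit unless given as SD. Junctions were left out of the fit. Precision is limited by the 3 or 4 arrays in a group.

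The members and the companion lists were chosen with earlier results of these data known. Members named with values were, in each class, up to 4 with the largest called rise in WT; all H1 genes; the 2 of highest mean over all arrays; Hist1h2aa, Hist1h2ba, Hist2h2be and Hist3h2a by role; every called fall; and up to 8 called in each genotype comparison. Of each companion list, genes picked by role and up to 4 other called genes were named. Hist1h2ah, Hist1h2bh, Hist1h2bm, Hist1h4b, Hist2h2aa1, Hist2h2aa2, Hist2h2ab and Hist3h2bb-ps, and members that missed the genotype threshold, were named after their values were seen. Per the labels, cells came from individual mice. Alternatives covered the gene summary, dim genes, scaling, moderation, arrays used and the replicate block. Whether replicate numbers pair the arrays was not settled: correlations of same-numbered deviations ran from -0.25 to 0.226. The main fit assumed no pairing.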

Additional observations from a re-analysis of the deposited data

Results flagged for a closer look

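In 120 groups of 4 arrays looked at over members and class medians, chance alone gives about 1 in 20, and 5 held an array far from the other 3. The T cell marker array ELL2 cko replicate 1 without LPS read 3.39 in Hist1h1t. WT replicate 1 without LPS stood apart in Hist1h2bh (5.57, high), Hist1h2bk (4.73, low) and Hist2h2aa2 (5.20, low). WT LPS replicate 1 was high in Hist1h4m, at 13.85.

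Outside the exon regions, 17 junctions carry histone symbols. A Hist1h2bp junction averaged 4.77 in WT LPS and 4.19 in WT without LPS. These groups did not overlap, but the gap was small: the lowest value with LPS was 4.395 and the highest without it 4.28. The share of all junctions with such a gap was not computed. The junction read 7.54 and 6.75 in ELL2 cko replicates 1 and 2 without LPS, the arrays with T cell, NK cell and neutrophil markers.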

How the results depend on the processing

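The WT count of 24 members called higher with LPS stayed between 20 and 28 under every alternative run, and between 20 and 26 with any single array left out. The ELL2 cko count of 7 was 12 with the mean of exon regions, 11 with the brightest exon region, 3 with only the groups compared, and 3 to 8 with single arrays left out. The 4 members lower in ELL2 cko with LPS became 2 with the brightest exon region, 0 with only the groups compared, 0 without the arrays with T cell markers, and 0 to 12 with single arrays left out. The difference of LPS changes, with 0 calls, gave 1 with the filter on dim genes, 1 with trended robust moderation, 1 with the mean of exon regions, and 0 to 6 with single arrays left out. The count of 0 without LPS was 0 under every alternative. The replicate block gave 23, 8, 0, 5 and 0 calls for LPS in WT, LPS in ELL2 cko, genotype without LPS, genotype with LPS and the difference. Whether the replicate numbers pair the arrays was not settled. With the mean of exon regions the H2B median was 6.78 in ELL2 cko and 6.42 in WT without LPS. The brightest exon region, chosen after seeing the data, reversed 10 values: with LPS in WT, Hinfp (-0.070), Zfp473 (-0.15), Lsm11 (1.12), Lsm1 (0.76), H2afv (-0.62), H2afy2 (-1.64) and H2afj (0.88); with LPS in ELL2 cko, H2afv (-0.77) and E2f1 (-0.11); and between genotypes with LPS, Hinfp (0.21). The cause was not tested. In members near the background controls, such as Hist1h1t, a fall would be hard to see. A rise can show there: Hist1h4a read 3.14 to 4.29 in WT without LPS and was called higher with LPS.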

Other observations

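When the 84 exon regions of members were sorted by mean signal over all arrays, the split between the ELL2 cko LPS arrays was widest in the middle range. In the 27 regions with a mean of 6 to 10, ELL2 cko LPS replicates 1 to 3 lay at a median of -0.30, -1.85 and -1.53 from the WT LPS mean. In the 20 regions with a mean of 10 or more these medians were -0.68, -0.96 and -0.77. In the 37 regions under 6 they were -0.17, -0.25 and -0.21. All 20 regions with a mean of 10 or more were called higher with LPS in WT and 5 in ELL2 cko. Over all exon regions 9.86% were called higher in WT and 2.95% in ELL2 cko. Shares among exon regions of like brightness were not computed. The bins were set after seeing the data, with no test.

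A junction of Hist1h2bc, Hist1h2bg and Hist1h2be, an H2B group, read 7.86, 8.47 and 8.05 in ELL2 cko LPS, 8.85 to 10.26 in WT LPS, 6.81 to 8.55 in ELL2 cko without LPS and 7.96 to 9.16 in WT without LPS. The stimulated and unstimulated groups overlapped in both genotypes.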
